A study of Mus musculus with 4 samples.

Results

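The arms of the miR-483 and miR-335 hairpins, mmu-miR-483-5p, mmu-miR-483-3p, mmu-miR-335-5p and mmu-miR-335-3p, were followed in the exosome fraction of 3T3-L1 cells. They are 4 of the 1881 mouse miRNAs on the array and were picked by name, with earlier array values in view: miR-483-5p was known to be detected at D0 and not detected at D12, so its loss is a description here and not a finding. The 3T3-L1 line is a mouse fibroblast-like line that turns into adipocytes under hormonal induction. The cells were grown in growth medium for D0, and the fractions of D4, D12 and D16 came from cells switched to a first differentiation medium with 1-methyl-3-isobutylxanthine, dexamethasone and insulin, followed by a medium with insulin alone. Every medium held fetal bovine serum depleted of exosomes, the fraction was pelleted by ultracentrifugation, and no treatment other than the change of medium separated the days. Each day was read on 1 single-colour (Cy3) array of material pooled from 2 experiments according to the methods and from 3 according to the sample descriptions, so a difference between days cannot be checked against replicates, and p-values are not given.

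Most miRNAs are cut as a short duplex from a hairpin transcript. The strand from its 5′ side is called 5p and that from its 3′ side 3p, and as a rule one of them is kept by an Argonaute protein while its partner is degraded. The bases near the 5′ end of the retained strand, the seed, select target mRNAs. The hairpin Mir483 lies within Igf2, the gene of a fetal growth factor, and Mir335 within Mest, a gene linked to the size of adipocytes. Both host genes are imprinted and transcribed from the paternal allele in most mouse tissues. In adipose tissue miR-483-3p is known for repressing the growth and differentiation factor GDF3, and miR-335 is known for its high level in fat of obese mice.

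The mature sequences are shown because the 4 miRNAs differ sharply in base composition, which the results return to. Each is written 5′ to 3′ from RefSeq records of GRCm38.p6, with the seed, bases 2 to 8, in capitals.
mmu-miR-483-5p: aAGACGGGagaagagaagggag
mmu-miR-483-3p: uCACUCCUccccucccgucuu
mmu-miR-335-5p: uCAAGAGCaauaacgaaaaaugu
mmu-miR-335-3p: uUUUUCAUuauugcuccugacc
The hairpins follow, with both mature arms in capitals.
Mir483 hairpin: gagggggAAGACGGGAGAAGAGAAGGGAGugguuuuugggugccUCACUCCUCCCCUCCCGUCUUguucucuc
Mir335 hairpin: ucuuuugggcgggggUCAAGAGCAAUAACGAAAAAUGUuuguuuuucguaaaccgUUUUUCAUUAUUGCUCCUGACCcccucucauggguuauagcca

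The Mir483 hairpin of 73 bases is at chr7:142654924-142654996 on the minus strand of GRCm38.p6, with the 5p arm at chr7:142654968-142654989 and the 3p arm at chr7:142654932-142654952. The Mir335 hairpin of 98 bases is at chr6:30741299-30741396 on the plus strand, with the 5p arm at chr6:30741314-30741336 and the 3p arm at chr6:30741354-30741375. Both hairpins run on the same strand as the host, and no other gene of the RefSeq table contains either of them. Of the 1881 miRNAs, 1608 matched a RefSeq mature sequence, and among these no other miRNA shared the seed of any of the 4 arms.

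The deposited value of a miRNA is its total gene signal, an intensity in arbitrary units above the local background. The software sums the probes whose signal exceeds 3 times their error, and calls the miRNA detected if there is at least 1 such probe. The error after ± is the one the software gives for that signal, and that of a ratio combines the errors of both signals. It comes from a single array and is not the spread between spots alone, since the brighter probe of miR-483-3p at D12 had an error of 10.6 on a signal of 105 while its spots had a coefficient of variation of 3.61%. Every miRNA has 30 spots on an array, divided among 4 probes for miR-483-5p and miR-335-3p and 2 probes for miR-483-3p and miR-335-5p. No member spot was saturated. Probes bind with different strength, so the level of one miRNA cannot be set against that of another, and only the course of each over the days is compared.

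The arrays differed as a whole. In the order of the days, 17.5%, 22.6%, 21.6% and 20.2% of the 1881 miRNAs were detected. For the 283 miRNAs found on every array, the later days had median ratios to D0 of 2.59, 1.99 and 1.32, and the 4 spike-in RNAs, which are control RNAs added to each sample, gave 1.82, 1.72 and 1.27. Ratios of the 4 arms are therefore given unscaled, with the value relative to that median, or the ratio of the median miRNA, beside them. The D0 array, the denominator of the ratios, was also the least even: replicate spots had a median coefficient of variation of 21.1%, against 7.19% to 8.07% on the other arrays. In most probes of the 4 arms its spots were dimmer on the left side than on the right. Markers of the labelled cell type were present, with 5 of 7 miRNAs of mesenchymal cells detected at D0 and 6 of 7 on every later day, and their summed signal was 260, 1807, 1219 and 846. The exceptions were miR-145a-5p, found on no array, and miR-143-3p, not detected at D0 and dim later, at 3.99, 4.91 and 4.34. Of 8 miRNAs of other cell types, 1, 3, 5 and 5 were detected in the order of the days. Their summed signal was 9.40, 481, 2589 and 1695, most of it miR-451a of red blood cells. Also detected at D4, D12 and D16 were miR-144-3p of red blood cells (21.3, 107 and 78.4) and miR-223-3p of leukocytes (16.9, 69.6 and 47.6). At D12 and D16 miR-142a-3p of leukocytes (7.36 and 5.30) and miR-122-5p of liver (6.26 and 4.13) were detected too. In contrast, miR-124-3p of neurons and miR-1a-3p and miR-133a-3p of striated muscle were not detected on any array. The part of these RNAs in the results below was not tested. According to the methods, the samples pooled for a day went in at equal amounts of protein. The spike-in RNAs were brighter on the later arrays too, and the spot size applied by the software was 0.780 at D4 and 0.760 at D12, against 0.6 at D0 and D16. Such differences between arrays, more vesicles, more miRNA per vesicle and more labelled RNA cannot be told apart in these signals.

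**Figure D1:**
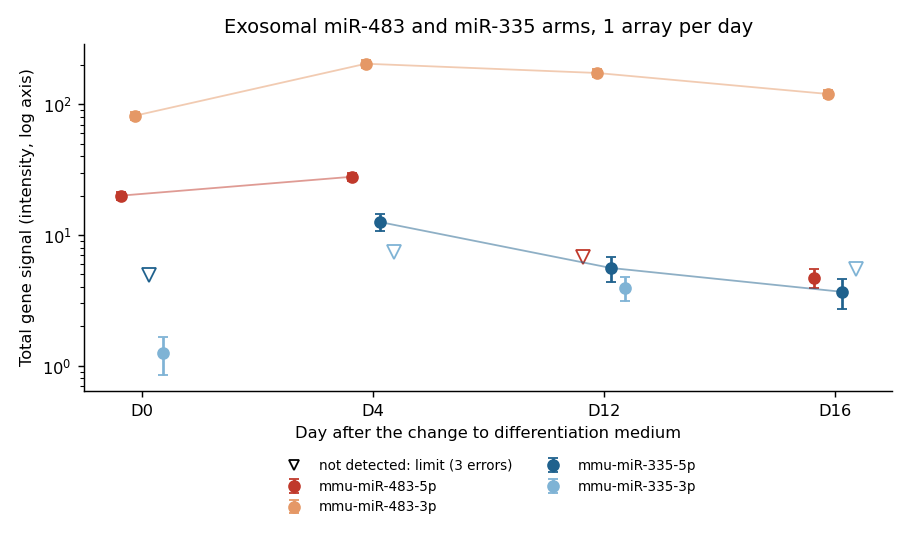
Total gene signal (intensity, log axis) of the 4 arms by day, with the software's error as bars; open triangles are limits of 3 summed probe errors for arms not detected, and lines join consecutive days on which an arm was detected. miR-483-3p is the sole arm detected on every array, miR-483-5p is not detected at D12 and is highest at D4 without scaling, though below D0 there under every scaling tried, and both miR-335 arms are dim, with points between 1.25 and 12.6.

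Of the 4 arms, 3 were detected on each array, though not the same 3. Over all miRNAs of the array the shares were 17.5%, 22.6%, 21.6% and 20.2% in the order of the days. The only arm detected on all 4 arrays by the limit of 3 errors was miR-483-3p, the arm of its hairpin best known from adipose tissue.

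The D0 signal of miR-483-3p was 82.0 ± 6.18. The D4 array gave 205 ± 14.8, the D12 array 174 ± 12.7 and the D16 array 120.2 ± 8.77. Without scaling it was lowest at D0, highest at D4 and lower again on each later day, and neighbouring days differed by more than the summed errors. All 30 spots were well above background on each array. The spots of its brighter probe had medians of 248, 441, 389 and 340 in the order of the days, and those of the dimmer probe 150, 299, 257 and 226, so both probes gave the same order.

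Divided by its D0 signal without scaling, miR-483-3p stood at 2.50 ± 0.261 on D4, 2.12 ± 0.223 on D12 and 1.47 ± 0.154 on D16. At this size it was one of many: 62.1% of the 317 miRNAs detected at both D0 and D4 were more than 2-fold higher at D4, and 47.8% of 297 were more than 2-fold higher at D12. Relative to the median miRNA it stood at 0.967, 1.07 and 1.11 in the same order. Between later days the course was again that of the array, with D12/D4 at 0.850 ± 0.0873 or 1.01 relative to the median, and D16/D12 at 0.691 ± 0.0712 or 0.994. Whether miR-483-3p was higher or lower than at D0 depended on the scaling. With the spike-in RNAs the ratios were 1.37, 1.23 and 1.15, and with the 75th percentile of signal they were 0.587, 0.646 and 0.648.

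The miRNAs closest to miR-483-3p in course were let-7b-3p, miR-877-3p, miR-207, miR-467f and miR-764-5p, out of 282 others detected on all 4 arrays. Their profiles of log2 signals, each centred on its own mean, differed from that of miR-483-3p by a mean of 0.0115 to 0.0220 over the 4 days. For miR-877-3p the signals were 115, 289, 248 and 166, and for let-7b-3p they were 7.34, 18.2, 15.9 and 10.9. These are arrays, not independent cultures, and the likeness is a description over 4 points that share their arrays.

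The partner arm took another course. The signal of miR-483-5p was 20.0 ± 1.37 at D0 and 27.9 ± 1.87 at D4, with all 4 probes detected on both days. At D12 none of its 4 probes passed 3 errors, at 0.821, 2.67, 2.61 and 2.99 errors, so the miRNA was not detected. With a looser limit of 2 errors it would have been, and then miR-483-5p and miR-335-3p were also detected on all 4 arrays. The sum over all its probes at D12 was 5.10 ± 1.13, and the limit of 3 summed probe errors was 6.79. At D16 it was detected again at 4.70 ± 0.792 from 3 probes. The D0 and D4 values thus lay well above those of D12 and D16, and the return at D16 was small: over all 4 probes the sum at D16 was 5.27 ± 0.922, a D16/D12 ratio of 1.03 ± 0.292.

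Single spots of miR-483-5p gave the same drop after D4, but not the higher total signal at D4. Only in its dimmest probe was the spot median higher at D4 than at D0. Without the spot size that the software applies, the D4/D0 ratio of the total signal was 1.07. Of the 30 spots, 25 were well above background on the D0 array and 28 on the D4 array, against none for D12 and 2 for D16. The spot medians of its 4 probes were 17.7, 60.7, 59.2 and 69.8 at D0 and 31.5, 57.4, 54.8 and 60.5 at D4. On the D12 array they were 3.37, 10.9, 10.9 and 12.0, and on the D16 array 7.39, 13.5, 13.8 and 15.5. In each probe every spot at D0 was brighter than every spot at D12. The remaining D12 signal was not zero, since 25 of 30 spots exceeded the 95th percentile of 400 negative control spots, which was 4.79 on that array. The unevenness of the D0 array touched this miRNA: the left and right spot medians of its brightest probe at D0 were 42.8 and 73.3.

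**Figure D2:**
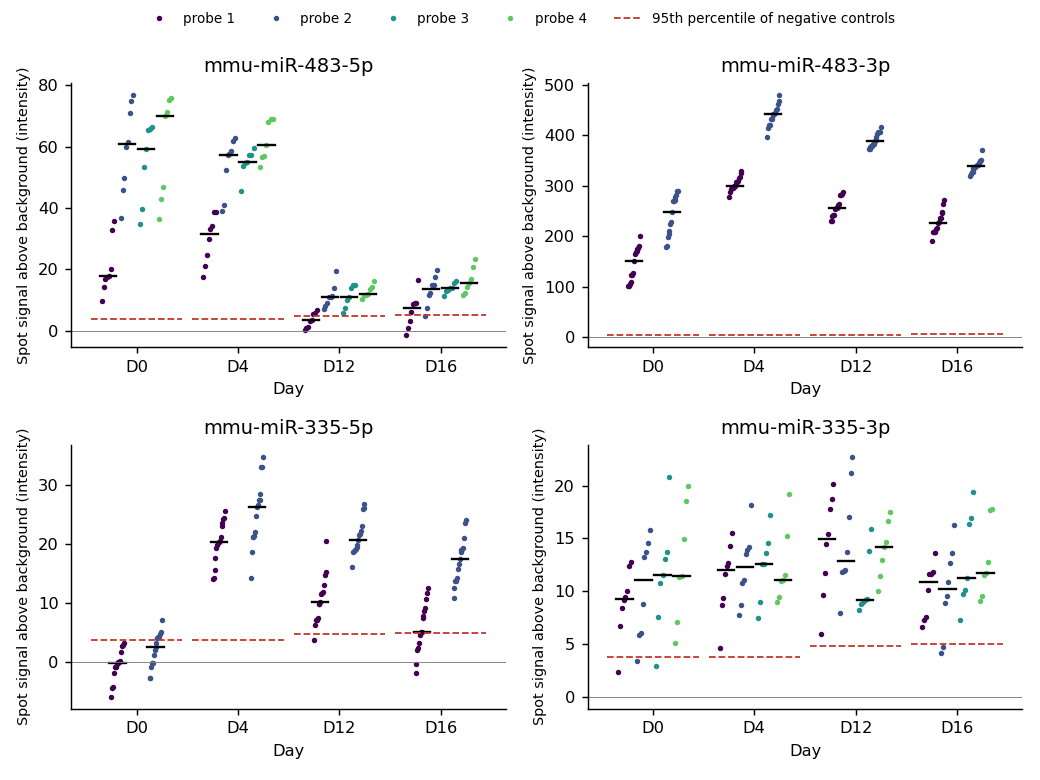
Background-subtracted intensity of each spot of the 4 arms by day (linear axes that differ between panels), coloured by probe; black bars are probe medians and dashed lines the 95th percentile of the negative control spots of that array. The spots of miR-483-5p drop between D4 and D12 in all 4 probes, those of miR-483-3p are far above the controls on each day, those of miR-335-5p lie around 0 at D0, and those of miR-335-3p overlap between all days.

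The listed D16/D0 ratio of miR-483-5p was 0.234 ± 0.0426, a signal 4.27-fold lower, but this sets 3 probes against 4. In the 3 shared probes the ratio was 0.260, and over all 4 probes it was 0.263 ± 0.0494. Of the 289 miRNAs detected at both D0 and D16, 3 had a ratio lower than the listed one, and 9.34% were below 0.5-fold. The D12 signal was at most 0.339 of that at D0, or at least 2.95-fold lower, and it was at most 0.243 of that at D4, or at least 4.11-fold lower (at most 0.288 relative to the median). For comparison, 9.73% of the 329 miRNAs detected at D0 were not detected at D12, and 15.0% of the 374 detected at both D4 and D12 were below 0.5-fold between them. Since the median miRNA was brighter at D12 and D16 than at D0, the distance from it was larger than the unscaled ratio: relative to the median, D12/D0 was at most 0.170 and D16/D0 was 0.177. The lower signals at D12 and D16 kept their direction under every scaling tried, at most 0.103 to 0.197 for D12 and 0.104 to 0.184 for D16. With normexp the ratios were 0.637 and 0.661, no longer below 0.5. At D4 the direction depended on it, with an unscaled ratio of 1.39 ± 0.133, a ratio of 0.539 relative to the median and 0.765 relative to the spike-in RNAs. Of 317 miRNAs 43 had a lower D4/D0 ratio.

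**Figure D3:**
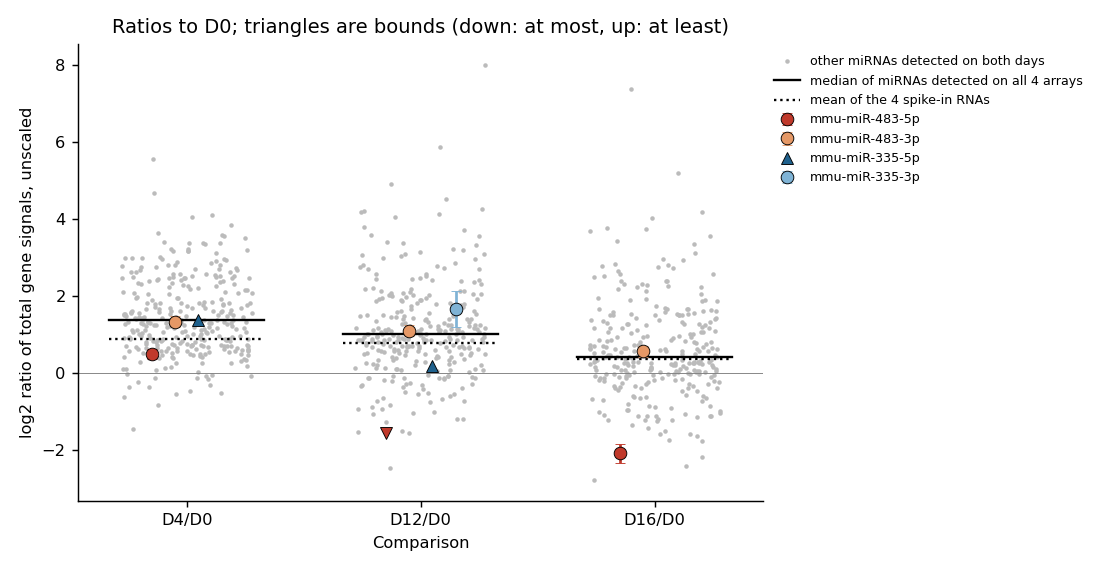
Unscaled total gene signal of each later day over D0 (log2 ratio), with the median of the 283 miRNAs found on every array (solid line), the mean of the spike-in RNAs (dotted line) and the other miRNAs detected on both days (grey); bars are the software's errors combined, and triangles are bounds. miR-483-3p sits on the median in each comparison, whereas miR-483-5p is below it at D4 and near the lower edge of the miRNAs at D12 and D16.

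Only 2 other miRNAs were detected at D0, D4 and D16 but not at D12. They were miR-6984-5p, with signals of 14.9, 12.0 and 2.80 on those days, and miR-5112, with 4.49, 15.7 and 2.75. Their centred log2 profiles differed from that of miR-483-5p by a mean of 0.283 and 0.604 over 3 days. Like miR-483-5p, both were dimmest at D16 among the days with a signal.

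The arms of miR-483 come from the same hairpin, so their ratios to D0 can be set against each other without any scaling between arrays. The D4 log2 ratio of the 5p arm minus that of the 3p arm was -0.84 ± 0.20. The difference was at most -2.65 for D12, and -2.65 ± 0.30 for D16. Relative to its partner, and against D0, the 5p arm was thus 1.79-fold, at least 6.27-fold and 6.26-fold lower on the 3 later days. The D16 value sets 3 probes of the 5p arm against 4, and the difference was -2.48 over all probes and -2.50 over shared probes. With normexp background correction, whose offset of 50 is added to every signal, the difference was smaller, at -1.25 for D12 and -1.03 for D16. A gap of this kind was not peculiar to the hairpin. For D12, 5 of 30 other hairpins with both arms detected had a lower difference than the bound, and the others ran from -3.43 to 4.46 with a median of -1.19. For D16, 4 of 25 were lower, with a range of -3.76 to 3.00 and a median of -1.12, and for D4 14 of 30 were lower. Other hairpins that lost an arm on a later day were left out, such as miR-3547 for D12 and miR-7070 for D16, whereas miR-483 entered D12 as a bound. The place of miR-483 among all hairpins is therefore not known.

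**Figure D4:**
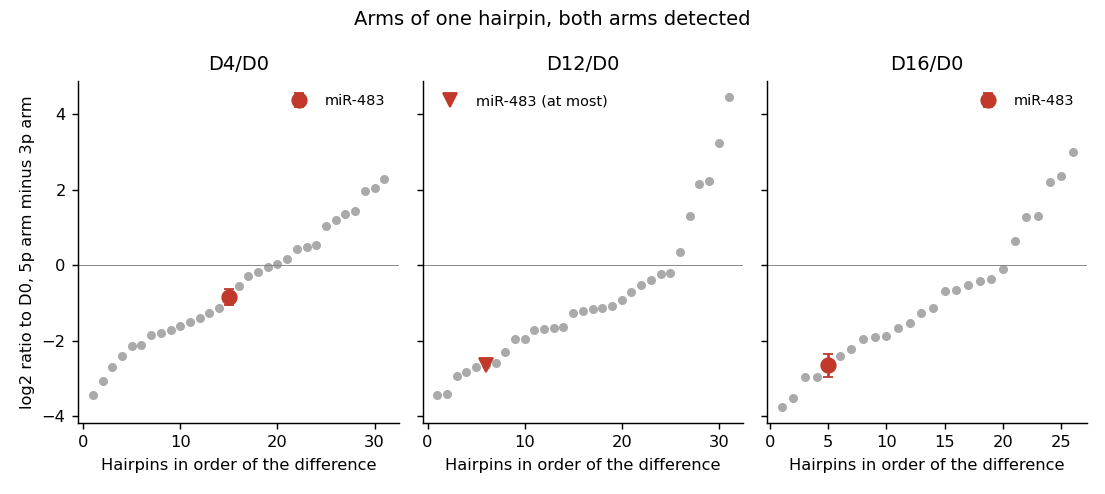
Difference between the arms of a hairpin in log2 ratio to D0 (5p minus 3p), for hairpins with both arms detected, in ascending order in a panel per day; the bar is the software's errors combined and the triangle an upper bound. miR-483 lies near the middle of the hairpins shown at D4 and near the lower end at D12 and D16, where other hairpins reach lower values. Other hairpins that lost an arm on that day are not shown.

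The 2 arms of miR-483 also sit at opposite ends in base composition, as the printed sequences show. Of the 22 bases of miR-483-5p 21 are purines (A or G), a share of 95.5% and the highest among the 1608 miRNAs with a sequence. In miR-483-3p the share is 9.52%, and 2 miRNAs had a lower one. Among 167 others with a share of at least 69.6%, the share of miR-335-5p, 47 were detected at D0 and 19 of these, or 40.4%, were not detected at D12. Among the 1437 below that share 215 were detected at D0, and 9 of these, or 4.19%, were not detected at D12. The median D12/D0 ratio of those detected on both days was 0.924 for 28 purine-rich miRNAs and 2.00 for 206 others, and at D16/D0 it was 0.778 and 1.37, without scaling. Of the 28 purine-rich miRNAs 15 were below their D0 signal at D12, against 20 of the 206 others. The 2 miRNAs with a lower purine share than miR-483-3p had D12/D0 ratios of 2.16 and 2.23, next to the 2.12 of miR-483-3p, but the median miRNA was also near, at 1.99. The arm whose share set the limit, miR-335-5p, went the other way: it was not detected at D0 and was detected on each later array. These counts describe the 4 arrays, and the part of base composition in the course of either arm was not tested.

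**Figure D5:**
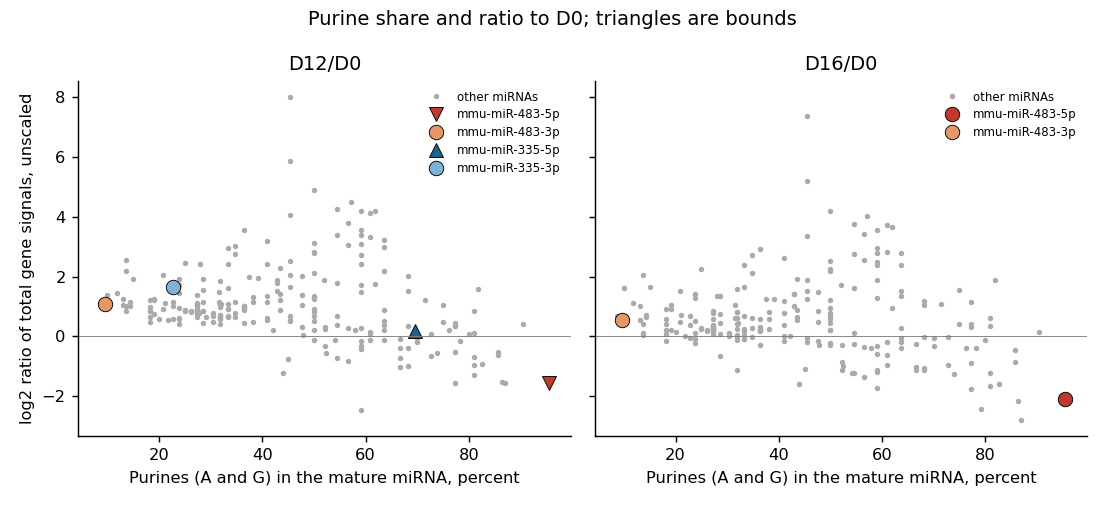
Share of purines in the mature miRNA (percent) against the log2 ratio of unscaled total gene signal at D12/D0 (left) and D16/D0 (right), for miRNAs with a RefSeq sequence that were detected on both days, with the 4 arms in colour where a ratio or bound could be given. Of the 28 other miRNAs with a share of at least 69.6% in each panel, 15 lie below 0 on the left and 18 on the right. Of those with a lower share, 20 of 206 lie below 0 on the left and 48 of 199 on the right. miR-483-5p is at the far right and low, opposite miR-483-3p.

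The miR-335 arms were dim throughout. miR-335-5p, the better studied arm of this hairpin, was not detected at D0, where its 2 probes gave -0.10 and 0.46 and the limit of 3 summed errors was 4.92. It was detected on the later arrays, with 12.6 ± 1.91 from both probes at D4, and from 1 probe 5.60 ± 1.23 at D12 and 3.68 ± 0.952 at D16. Of 30 spots, none, 15, 9 and 3 were well above background in the order of the days. The spot medians of the brighter probe were 2.56, 26.2, 20.6 and 17.5 and those of its partner -0.19, 20.4, 10.3 and 5.11, in the order of the days. The spots of D0 and D4 did not overlap in either probe.

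Against the D0 limit miR-335-5p was at least 2.56-fold higher at D4 and at least 1.14-fold higher at D12 without scaling, and no fold is given for D16, where its signal was below the limit. Detection at D4 after none at D0 was seen in 7.02% of the 1552 miRNAs not detected at D0. The D4 bound is no larger than the general brightening of the array. Divided by the median ratio, the D4 signal was 4.87 and the D12 signal 2.81 against the D0 limit of 4.92. Neither then passed it, though the shortfall at D4 was small and the limit adds the errors of both probes in full. The sum over both probes at D0 was 0.362 ± 1.16, so a value under the limit gives no direction. Divided by the spike-in factor the D4 signal was 6.90, above the limit, and divided by the 75th percentile factor 2.96, below it. After D4 the listed signal was lower, with D12/D4 at 0.445 ± 0.119, but this sets 2 probes against 1. In the probe detected on both days the ratio was 0.800, and over both probes it was 0.674 ± 0.168, against 0.843 for the median miRNA. D16/D12 was 0.657 ± 0.223, or 0.946 relative to the median.

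A total of 67 miRNAs were detected on the later 3 arrays and not at D0. Among the 66 others miR-350-3p, miR-466d-3p, miR-669m-3p, miR-212-3p and miR-6481 were closest to miR-335-5p in course, with mean differences of 0.192 to 0.214 in centred log2 signal over 3 days. The signals of miR-669m-3p on those days were 41.8, 23.8 and 18.2, lower on each array than on the one before.

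For miR-335-3p the detection calls alternated, with probe signals close to the limit on every array. It was listed at 1.25 ± 0.405 on the D0 array from 1 probe and at 3.95 ± 0.828 on the D12 array from 2 probes. It was not detected at D4 or D16. Over all 4 probes the sums were 4.54 ± 0.856, 6.76 ± 1.24, 7.05 ± 1.16 and 4.84 ± 0.912 in the order of the days. Without scaling the sums of D4 and D12 exceeded that of D0 by more than the summed errors, at ratios of 1.49 and 1.55. Relative to the median, however, they were at 0.575 and 0.778, and the software applied a larger spot size at D4 and D12 than at D0. The lowest of the 16 probe signals of miR-335-3p was 2.24 times its error and the highest 3.52 times, so that all lay around the limit of 3. Between 27 and 30 of its spots exceeded the 95th percentile of the negative controls on each array, although at most 2 were well above background. The listed D12/D0 ratio of 3.16 ± 1.22 sets 2 probes against 1. In the probe detected on both days it was 1.39, against 1.99 for the median miRNA, and with quantile normalization the listed value fell below 1, to 0.421. Of 2 other miRNAs detected at D0 and D12 alone, miR-6948-5p (2.89 and 8.05) was closer to it and miR-5099 (8.54 and 4.04) ran the other way.

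Among 8 miRNAs of other imprinted loci, outside the large clusters of Dlk1-Dio3 and Sfmbt2, 1 was detected at D0 and 2 on each later array. Over all miRNAs of the array, 17.5% were detected at D0 and 20.2% to 22.6% later. miR-184-5p had signals of 8.15, 13.2, 14.1 and 9.76, which gives unscaled ratios to D0 of 1.62, 1.72 and 1.20, but 0.625, 0.864 and 0.904 relative to the median miRNA, so its direction depended on the scaling. miR-296-5p of the Gnas locus was not detected at D0 and had 12.9, 11.6 and 4.29 on the later arrays, which is at least 2.55-fold above its D0 limit at D4 and at least 2.30-fold at D12, days on which the median miRNA stood at 2.59 and 1.99 of its D0 signal. The partner arms of both, miR-298-5p and miR-298-3p of the Gnas locus, and miR-675-5p and miR-675-3p of H19, a gene beside Igf2, were not detected on any array.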

How the data were processed

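For each of the 4 arrays the authors deposited scanner software output (Feature Extraction 11.0.1.1): background-subtracted intensity per spot, with signals, errors and flags per probe and miRNA, and no scaling between arrays. The stated rule for detection and summing returned the deposited call and value of all 1881 miRNAs on each array. The members and lists were chosen with earlier results of these data known. Ratios to D0 were taken unscaled, with 2-fold and 0.5-fold as thresholds. The study's text names division by D0, and whether its arrays were scaled before that is not given in the sources used here. The unscaled ratios given here differ from those that the study tabulates. Bounds use 3 times the errors of all probes of a miRNA, summed. Computation used Python 3.11.15, numpy 2.4.6, pandas 2.3.3 and, for normexp, limma 3.58.1 in R 4.3.3, and was tested on simulated data. The miRNAs named are the 4 arms, for each the 5 closest in course (or as many as shared its days of detection), sharers of a seed, 8 miRNAs of other imprinted loci and the marker lists. Alternatives were scaling (spike-in RNAs, 75th or 90th percentile, quantiles), probes summed, spot size, side of the array, median of spots, normexp with an offset of 50, and the detection rule. The array grid names another assembly than GRCm38.p6, so coordinates come from RefSeq records matched by name.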

Additional observations from a re-analysis of the deposited data

How the results depend on the processing

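Of 142 alternative values 69 stayed within the error of the main value or, for counts of arms, near it, and 62 moved by more. Part of the 69 was fixed by construction and is no sign of stability. A single factor per array, the spot size included, cannot change the difference between the arms of miR-483. For miR-483-3p every sum used the same 2 probes. Counts of 2 or 4 arms against 3 were also taken as near. In the other 11 a ratio or bound above 2-fold went below 1. With the spike-in RNAs the D4/D0, D12/D0 and D16/D0 values were 0.765, at most 0.197 and 0.184 for miR-483-5p and 1.37, 1.23 and 1.15 for miR-483-3p, the bounds of miR-335-5p at D4 and D12 were at least 1.40 and 0.662, and D12/D0 of miR-335-3p was 1.83. With the 75th percentile they were, in the same order, 0.327, 0.103, 0.104, 0.587, 0.646, 0.648, 0.601, 0.346 and 0.960. The 90th percentile gave 0.472, 0.146, 0.147, 0.846, 0.916, 0.919, 0.866, 0.491 and 1.36, and quantile normalization 0.433, 0.120, 0.142, 0.831, 0.924, 0.914, 0.818, 0.426 and 0.421. A lower bound under 1 gives no direction. Without the spot size, a default of 0.6 on the D0 and D16 arrays and larger on the others, miR-483-5p was 1.07 at D4 and at most 0.268 at D12, miR-483-3p was 1.92 at D4 and 1.68 at D12, and miR-335-5p at D4 was at least 1.97. Spots on the left gave 1.89, at most 0.460 and 0.303 for miR-483-5p, 2.82, 2.37 and 1.66 for miR-483-3p, and 5.10 for miR-335-3p at D12. Spots on the right gave 1.12 at D4 and at most 0.238 at D12 for miR-483-5p (3 of its 4 probes), and 2.10, 1.82 and 1.22 for miR-483-3p. Normexp with an offset of 50, which compresses the ratios of dim miRNAs, gave 0.998, 0.637 and 0.661 for miR-483-5p, 1.71 at D4 and 1.51 at D12 for miR-483-3p, 1.34 for miR-335-5p at D4 and 1.03 for miR-335-3p at D12. Summing all probes gave 0.254 for miR-483-5p and 1.55 for miR-335-3p at D12, shared probes gave 1.39 for the latter, and the median of spots gave at most 0.315 for miR-483-5p at D12. The arm difference of miR-483, for which these settings were added after the data were seen, was below 0 under all of them. At D4 it was -0.58 on the left. At D12 it was -2.94 with quantiles, -3.06 over all probes, -2.37 on the left, -2.93 on the right and -1.25 with normexp, and at D16 -1.03 with normexp. Beyond what scaling and the offset set by construction, the cause was not tested. With 50% of the spots of a probe required to be well above background, or a signal above 4 errors, 2, 3, 2 and 1 of the 4 arms were detected in the order of the days, with miR-483-3p alone left at D16 and miR-335-3p on no array. Of all miRNAs, 12.5%, 17.3%, 16.4% and 15.5% passed the rule on spots. The limit of 4 errors was passed by 13.9%, 18.4%, 18.0% and 16.9%. With 1 threshold for all arrays miR-335-3p was not detected at D0. With a signal above 2 errors 3 arms were detected at D0 and all 4 on each later array, and 23.3%, 28.1%, 27.2% and 26.4% of all miRNAs passed that limit. Shared probes gave no value for miR-483-5p at D12 or for miR-335-5p, nor did all probes for miR-335-5p, whose D0 signal is below its error.

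No paired analysis was possible because each day has 1 array. The precision is that of single arrays of pooled material: a signal carries an error of 7.24% to 7.54% for miR-483-3p and from 15.2% to 32.4% for the miR-335 arms, and none of it covers the spread between cultures.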
